A study of Mus musculus with 24 samples.

Results

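The glutathione S-transferases (Gst), UDP-glucuronosyltransferases (Ugt) and cytosolic sulfotransferases (Sult) were taken as 1 group of conjugating enzymes and compared in livers, hepatic endothelial cells (ECs) and liver macrophages of mice that lack the ligands GDF2 (also named BMP9) and BMP10 in hepatic stellate cells (HSCs). The members were all genes whose symbol has the form of a gene of these families (Gst, Ugt or Sult followed by the letters and digits of class and member), which gave 65 entries with 63 symbols among the 48820 entries of each count table. Gstp1 and Gstp2 each have a second entry, and both second entries had 0 counts in all 6 liver libraries. Of the 65 entries, 52 passed the filter on low counts in the livers, 39 in the macrophages of the ligand experiment, 38 in those of the Smad4 experiment and 26 in the ECs.

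All mice were C57BL/6, and each group had 3 RNA-seq libraries, 24 in all. The mutants of the ligand experiment (Gdf2/Bmp10 HSC-KO) carry floxed Gdf2 and Bmp10 alleles that Lrat-Cre, which is active in HSCs, deletes. Whole livers were taken from mice aged 12 weeks, and ECs (CD45-CD31+) and macrophages (CD45+Ly6C-F4/80+CD64+) were sorted from mice aged 8 to 10 weeks. In the Smad4 experiment, macrophages of the same gate and ages came from Smad4 fl/fl mice with Vav1-Cre, which is active in all hematopoietic cells (Smad4 cKO), and from mice with the floxed Smad4 allele as controls. The exact genotype of the controls of the ligand experiment is not given in the labels, and sample names show that 3 of the mice contributed ECs as well as macrophages.

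These enzymes attach glutathione, glucuronic acid or sulfate to drugs, steroids, bile pigments and reactive lipids, which makes the products easier to excrete. The co-substrates are glutathione, UDP-glucuronic acid and PAPS, and the genes are controlled by nuclear receptors such as CAR (encoded by Nr1i3) and PXR (Nr1i2), by the aryl hydrocarbon receptor (Ahr) and by NRF2 (Nfe2l2). In the liver most of them are hepatocyte genes, several differ along the lobule from portal to central vein, and in mice several are sex biased: Sult2a1, Sult2a2 and Sult3a1 are known as female-biased, and Gstp1 and Gstp2 as male-biased.

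The promoter windows of 2 neighbouring pairs are shown, because a gene of each pair, Gsta2 or Sult3a1, was called in the livers below, while its neighbour missed the threshold. The windows run from 250 bases before to 50 after the RefSeq start on GRCm38.p6, 5′ to 3′ on the gene's strand, and capitals mark the dioxin response core GCGTG, the sequence that the Ahr and ARNT pair is known to bind. Gsta1 lies at chr9:78230419-78230718 (plus strand), Gsta2 at chr9:78347096-78347395 (minus), Sult3a1 at chr10:33857472-33857771 (plus) and Sult3a2 at chr10:33782066-33782365 (minus). The Gsta2 and Sult3a2 windows lie inside the GENCODE spans of these genes (chr9:78331018-78355788 and chr10:33766424-33786704). Their RefSeq starts thus differ from the GENCODE gene starts.
Gsta1: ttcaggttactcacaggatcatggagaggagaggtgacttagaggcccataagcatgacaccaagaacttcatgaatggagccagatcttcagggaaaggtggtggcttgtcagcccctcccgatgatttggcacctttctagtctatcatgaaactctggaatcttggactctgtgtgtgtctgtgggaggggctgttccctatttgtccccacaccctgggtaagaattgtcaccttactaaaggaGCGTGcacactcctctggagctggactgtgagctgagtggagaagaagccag
Gsta2: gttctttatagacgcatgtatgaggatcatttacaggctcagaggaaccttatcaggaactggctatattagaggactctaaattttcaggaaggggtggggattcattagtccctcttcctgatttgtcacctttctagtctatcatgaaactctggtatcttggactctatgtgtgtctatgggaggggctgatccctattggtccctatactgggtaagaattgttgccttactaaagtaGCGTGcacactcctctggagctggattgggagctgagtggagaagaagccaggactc
Sult3a1: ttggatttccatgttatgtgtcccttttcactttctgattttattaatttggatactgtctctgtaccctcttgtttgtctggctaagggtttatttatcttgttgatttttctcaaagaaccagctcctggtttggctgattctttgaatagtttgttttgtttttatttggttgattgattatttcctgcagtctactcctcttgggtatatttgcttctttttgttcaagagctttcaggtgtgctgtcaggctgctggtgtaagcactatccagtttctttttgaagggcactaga
Sult3a2: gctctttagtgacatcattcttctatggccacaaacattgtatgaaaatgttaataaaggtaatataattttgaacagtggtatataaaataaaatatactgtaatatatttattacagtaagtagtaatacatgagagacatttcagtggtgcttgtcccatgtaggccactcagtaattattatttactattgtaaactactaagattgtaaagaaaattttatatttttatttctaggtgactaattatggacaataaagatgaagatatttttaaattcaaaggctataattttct
In Gsta1 the match begins 2 bases before the start and in Gsta2 7 bases before it. The 2 Gsta windows were identical at 75.3% of the aligned positions, and the 2 Sult3a windows at 49.3%. Their longest protein-coding transcripts were identical at 96.7% for the Gsta pair and at 72.0% for the Sult3a pair, so reads of Gsta1 and Gsta2 are partly interchangeable. GCGTG, on either strand, was found in 10 of the 55 member genes that have a window (18.2%), against 32.4% of all 32851 windows. The antioxidant response core TGACNNNGC was in 3 of 55 (Gsta3, Gstm5 and Gstm7, 5.45%), against 12.4% of all windows, and the TCF core ATCAAAG in 1 of 55 (Sult2a8, 1.82%), against 3.73%. Some genes have more than 1 window, and counted by window the shares of the 66 member windows were 18.2%, 4.55% and 1.52%. No match overlapped another motif in the windows shown. These are matches of letters, not sites of binding.

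The libraries held between 60911527 and 110879155 counts. Lowered Gdf2 and Bmp10 in the livers matched the labels, with 9.38 to 22.5 CPM (the count relative to the library's total count, scaled with TMM factors) of Gdf2 in the controls and 2.12 to 3.85 in HSC-KO, and with 1.99 to 3.28 and 0.0938 to 0.262 CPM of Bmp10. Smad4 was at 35.3 to 42.8 CPM in the controls and 12.6 to 17.2 in Smad4 cKO macrophages. HSC-KO liver replicate 3 stands apart: it held 0.167 CPM of Xist and 122.8 CPM of 4 Y-linked genes together, whereas the other 5 livers held 303 to 708 CPM of Xist and no Y-linked count. The labels give no sex. In this library the summed level of 12 male-biased hepatocyte genes was 32137 CPM, against 1049 to 4773 in the other 5, and that of 13 female-biased ones 21.5 CPM, against 2257 to 6369. The called members, and the members for which this library stands apart, are therefore given with and without it.

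Among the controls' livers, the levels per length of transcript (RPKM, CPM per kilobase of exons) spanned the classes widely. Gstm1, a mu class enzyme, led with 580 ± 111 RPKM (SD, n = 3), followed by Sult1a1, the phenol sulfotransferase, with 292 ± 56.5, Ugt2b5 with 270 ± 6.44 and Gsta3 with 201 ± 14.1. Gstm1 lay above the other 3 by more than their spread, while Sult1a1 and Ugt2b5 did not differ beyond it. The leading members of other classes were Ugt1a1, the bilirubin transferase, with 167 ± 10.8 RPKM, Sult2a2 with 160 ± 134, Gstt1 with 139 ± 4.27, Ugt3a2 with 121 ± 13.2, Gstz1, which acts in tyrosine breakdown, with 110 ± 10.7, and Sult3a1 with 104 ± 62.6. Ugt2a3 was at 95.4 ± 8.26, Gstp1 at 88.7 ± 18.7, Gstk1 at 50.4 ± 5.90, Gsto1 at 32.6 ± 7.58 and Sult5a1 at 3.53 ± 2.70. The order within this second group is not resolved where neighbours' SDs overlap. Levels of Ugt1a genes rest in part on exons that the genes of this locus share.

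In HSC-KO livers, the amine sulfotransferase Sult3a1 fell, with Sult2a7, a hydroxysteroid sulfotransferase, and the glutathione transferase Gsta2 rose. These 3 members were called with and without HSC-KO replicate 3, and Ugt1a10 was called lower in all 6 livers alone. A gene was called where edgeR's quasi-likelihood test gave an adjusted p (Benjamini-Hochberg) below 0.05 and a log2 fold change above 1 in size. By this rule 4 of 52 members were called (7.69%), 1 higher and 3 lower, against 2.48% of all 17118 genes tested, 1.03% higher and 1.45% lower. Without HSC-KO replicate 3, 4 of 53 were called (7.55%), 2 in each direction, against 2.53% of 17803 genes (1.16% higher and 1.37% lower). In both fits 3 of 52 were called (5.77%), 1 higher and 2 lower, against 1.99% of all genes (0.859% higher and 1.13% lower). In whole livers, fewer cells of a type and less RNA per cell cannot be told apart.

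Sult3a1 (GRCm38 chr10:33857721-33879532) was at 37.9, 174 and 149 CPM in the controls and at 1.05, 1.79 and 0 CPM in HSC-KO, where the 0 is replicate 3. All 3 HSC-KO livers lay below all controls. Its log2 fold change was -6.97 (standard error (SE) 1.19, edgeR adjusted p = 0.0256) and -6.40 (SE 0.79, adjusted p = 0.00917) without replicate 3. Its neighbour Sult3a2 (chr10:33766424-33786704), chosen after its values were seen, was at 1.09, 26.4 and 9.99 CPM in the controls and had 0 counts in each HSC-KO liver. Against 3 counts per library this is at least 299-fold lower on the means, or at least 132-fold without control replicate 2, but it missed the threshold (edgeR adjusted p = 0.0501, and 0.0695 without replicate 3) and was called by DESeq2. The controls of both genes ranged together, with the lowest value of each in control replicate 1 and the highest in control replicate 2.

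Sult2a7 (chr7:14465051-14494230) was at 1.46, 3.91 and 2.98 CPM in the controls and at 0.389, 0.369 and 0.306 CPM in HSC-KO. The groups did not overlap, at a low level (log2 fold change -2.96, SE 0.44, edgeR adjusted p = 0.0146, and -2.87, SE 0.50, adjusted p = 0.0332 without replicate 3). Ugt1a10 (chr1:88055388-88219004) was at 3.86, 29.9 and 14.4 CPM in the controls and at 1.67, 1.12 and 1.60 CPM in HSC-KO. It was lower in every mutant liver (log2 fold change -3.45, SE 0.67, edgeR adjusted p = 0.0424), and missed the threshold without replicate 3 (-3.52, SE 0.83, adjusted p = 0.0857), when 1 library fewer was fitted. Of its exon bases 58.1% are shared with other Ugt1a genes, and the summed Ugt1a locus was at 1214 ± 83.2 CPM (SD, n = 3) in the controls and 996 ± 54.6 in HSC-KO, which did not pass (-0.29, SE 0.12, edgeR adjusted p = 0.386, and -0.24, adjusted p = 0.48 without replicate 3).

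The liver calls also rest on single libraries other than replicate 3. Without control replicate 2, edgeR called 0 members, with 11 at an unadjusted p below 0.05 (Gsta2 2.34, adjusted p = 0.0609; Sult3a1 -6.61, adjusted p = 0.0902; Sult2a7 -2.63, adjusted p = 0.0616; Ugt1a10 -2.62, adjusted p = 0.104). Gsta2 kept its call when any other library was left out. The calls of Sult3a1 and Sult2a7 were lost without control replicate 3 (adjusted p = 0.0905 and 0.0676), HSC-KO replicate 1 (0.131 and 0.0698) or HSC-KO replicate 2 (0.0575 and 0.0514), with log2 fold changes between -6.78 and -7.83 for Sult3a1 and between -2.90 and -3.03 for Sult2a7. That of Ugt1a10 was kept only without control replicate 1, and its adjusted p without the other libraries lay between 0.0857 and 0.156. The direction of all 4 was the same in each of these fits.

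Gsta2 (chr9:78331018-78355788) was at 9.62, 8.72 and 3.95 CPM in the controls and at 28.5, 34.2 and 39.0 CPM in HSC-KO. Every HSC-KO liver, replicate 3 included, lay above every control (log2 fold change 2.19, SE 0.32, edgeR adjusted p = 0.0147, and 2.08, SE 0.35, adjusted p = 0.0284 without replicate 3). Gsta1 (chr9:78230656-78242684) was at 1.03, 0.0652 and 0.0887 CPM in the controls and at 3.85, 8.66 and 7.58 CPM in HSC-KO. Its groups did not overlap either (log2 fold change 4.03, SE 0.97), but it missed the threshold (edgeR adjusted p = 0.0866, and 0.119 without replicate 3). DESeq2 called Gsta1 higher in all 6 livers but not without replicate 3, and edgeR called it without control replicate 1. With each library left out, its log2 fold change lay between 3.57 and 6.42. For Gsta1, 81.8% of the stretches of 100 transcript bases occur in other genes, Gsta2 among them, and for Gsta2 35.02%, so part of either count may come from the other gene. Both are alpha class enzymes, whose promoter windows are shown above. The other alpha members, Gsta3 and Gsta4, did not pass (log2 fold changes -0.21 and 0.60, edgeR adjusted p = 0.662 and 0.164, and -0.33 and 0.61, adjusted p = 0.352 and 0.204 without replicate 3).

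Sult1e1, the estrogen sulfotransferase (chr5:87575969-87591594), is the member whose call depends on replicate 3 in the other direction. It was at 0.272, 0.261 and 0.643 CPM in the controls, at 3.94 and 2.42 in HSC-KO replicates 1 and 2, and at 0 in replicate 3. Without replicate 3 it was called higher (log2 fold change 3.02, SE 0.50, edgeR adjusted p = 0.0272), and with it not (2.43, SE 1.33, adjusted p = 0.527). Gstm2, a mu class enzyme, was at 44.3, 37.7 and 69.8 CPM in the controls and at 13.9, 26.9 and 14.0 CPM in HSC-KO. Its groups did not overlap, but it was not called by edgeR (log2 fold change -1.47, SE 0.33, adjusted p = 0.0671), whereas DESeq2 called it in both fits. It is named here after its values were seen.

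**Figure D1:**
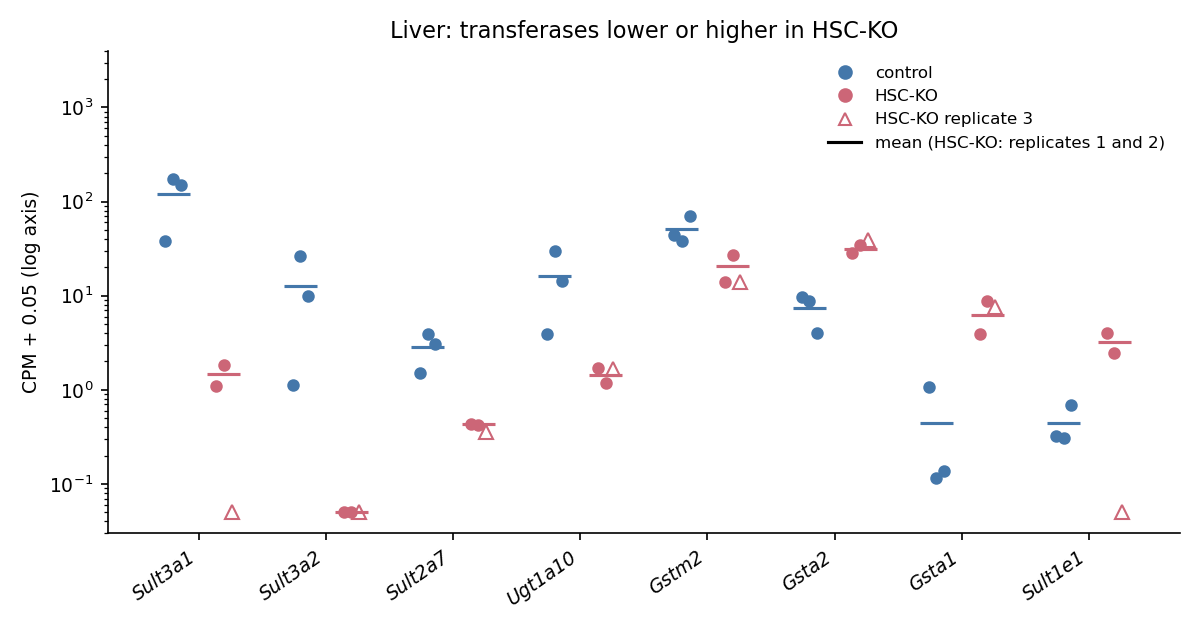
CPM plus 0.05 on a log axis for 8 members in each of the 6 livers, controls as blue and HSC-KO as red circles, with HSC-KO replicate 3 as an open triangle and bars at the means (HSC-KO without replicate 3); zero counts sit at 0.05. Replicate 3 lies with the other mutants for Gsta2 (39.0 against 28.5 and 34.2 CPM) and away from them for Sult1e1 (0 against 3.94 and 2.42 CPM).

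The other members were mostly near their control level. Of the 52 tested, 31 had a log2 fold change below 0.5 in size, and 29 of 53 without replicate 3. The median was -0.07, against -0.01 over all genes, and -0.14 against -0.02 without replicate 3. The class medians that moved most with that library were those of the 2 pi members, 2.29 with and -0.08 without it, and of the 7 Ugt2b members, 0.02 and -0.46. The median was 0.12 with and 0.39 without it for 5 Sult1 members, 0.79 and 1.05 for 2 omega members, -0.29 and -0.14 for 3 theta members, -0.50 and -0.41 for 8 Ugt1a members and -0.06 and 0.03 for 6 Sult2 members. It was 1.40 and 1.35 for 4 alpha members and -0.05 in both fits for 7 mu members. The Sult3 class holds Sult3a1 and Sult3a2 alone, which are described above. In 11 of 52 members (21.2%) the groups did not overlap, 5 higher and 6 lower, against 19.7% of all genes (8.8% higher and 10.9% lower). Without replicate 3 it was 25 of 53 (47.2%), 10 higher and 15 lower, against 32.2% of all genes (15.6% and 16.6%). The 15 lower ones include Ugt2b1, Ugt2b34, Ugt2b35, Ugt2b36, Ugt2b38, Ugt2b5 and Ugt3a1, none of which was called. Of all tested members, 12 had an unadjusted p below 0.05, and 18 without replicate 3.

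HSC-KO replicate 3 differed from the other livers in several members. In it, 10 of 52 members (19.2%) lay more than 1 log2 unit outside the range of the other 5 livers on the scale of log2(CPM + 0.5), against 1.31% of all genes. The added 0.5 narrows the gap of genes near 0, so that Sult1e1 and Sult2a3, which were at 0 in replicate 3 alone, are not among the 10. In each other liver it was between 0 and 4 members, and the 4 in control replicate 2 (7.69%, against 0.397% of all genes) were Sult2a3, Sult3a2, Sult5a1 and Ugt1a10, all above the others. The 4 above were Gstp1, Gstp2, Ugt2b1 and Ugt2b38, and the 6 below were Sult2a1, Sult2a2, Sult2a5, Sult3a1, Gstt3 and Ugt1a7c.

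Gstp1, a pi class enzyme, was at 166, 108 and 138 CPM in the controls, at 115 and 125 in HSC-KO replicates 1 and 2 and at 1582 in replicate 3. Gstp2 was at 10.8, 5.43 and 10.2, at 8.29 and 9.71, and at 125 CPM. For both genes the first 2 mutants lie within the range of the controls. The log2 fold change of Gstp1 was 2.15 (SE 0.97, edgeR adjusted p = 0.417) with and -0.19 (SE 0.19, adjusted p = 0.761) without replicate 3, and that of Gstp2 2.43 (SE 1.01, adjusted p = 0.367) and 0.03 (SE 0.31, adjusted p = 0.986). Reads of the Gstp pair can be exchanged, since 52.8% of the 100-base stretches of Gstp1 and 63.5% of those of Gstp2 occur in another gene, but summed they show the same, with 113 to 177 CPM in the other 5 livers and 1707 in replicate 3.

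The hydroxysteroid sulfotransferases Sult2a1 and Sult2a2 went the other way. Sult2a1 was at 16.9, 294 and 30.04 CPM in the controls, at 106 and 220 in HSC-KO replicates 1 and 2 and at 0.376 in replicate 3. Sult2a2 was at 52.4, 233 and 70.6, at 160 and 252, and at 0 CPM. Neither was called in either fit. Ugt2b1, of a family that conjugates steroids, was at 249, 247 and 294 CPM in the controls, at 172 and 190 in HSC-KO replicates 1 and 2 and at 670 in replicate 3. Its log2 fold change was 0.38 (SE 0.49, edgeR adjusted p = 0.842) with and -0.54 (SE 0.14, adjusted p = 0.114) without that library. In all, 11 of 52 members changed sign between the fits, 5 of them Ugt2b genes, and none of the 11 was called in either. The sex signs of replicate 3 move with these values, and their part in them was not tested. Genotype and this library's other properties cannot be told apart within it.

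**Figure D2:**
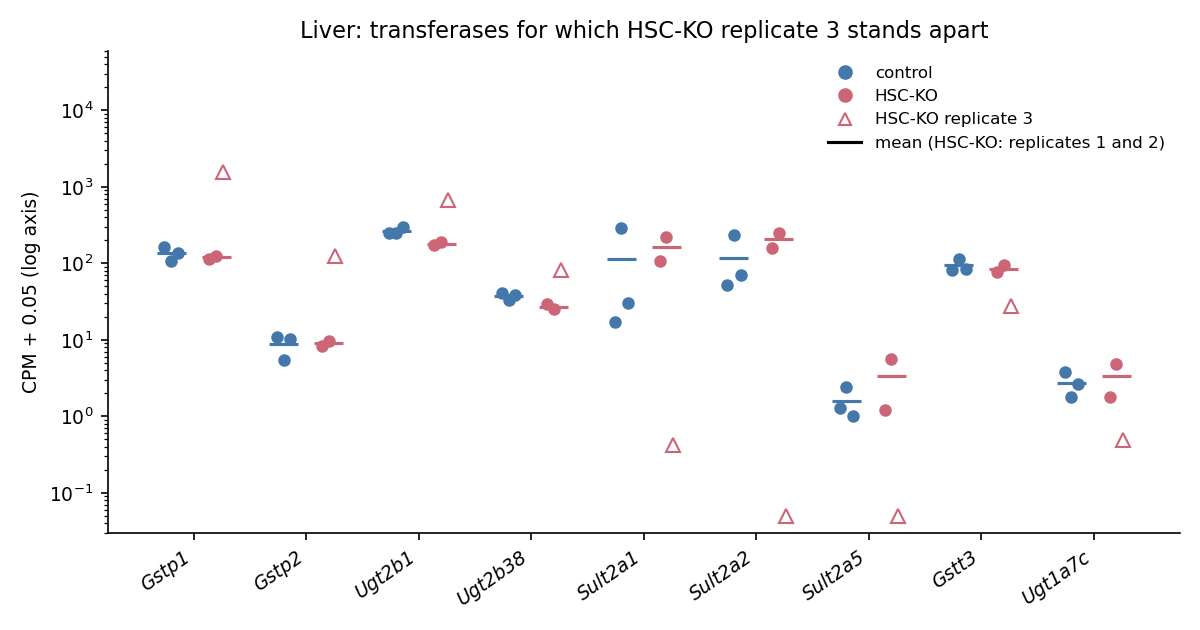
CPM plus 0.05 on a log axis for 9 members for which HSC-KO replicate 3 (open triangle) lies outside the range of the other 5 livers (blue circles controls, red circles HSC-KO replicates 1 and 2, bars the means without replicate 3). Gstp1 in replicate 3 is at 1582 CPM, against 108 to 166 in the other livers, and Sult2a2 at 0, against 52.4 to 252.

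**Figure D3:**
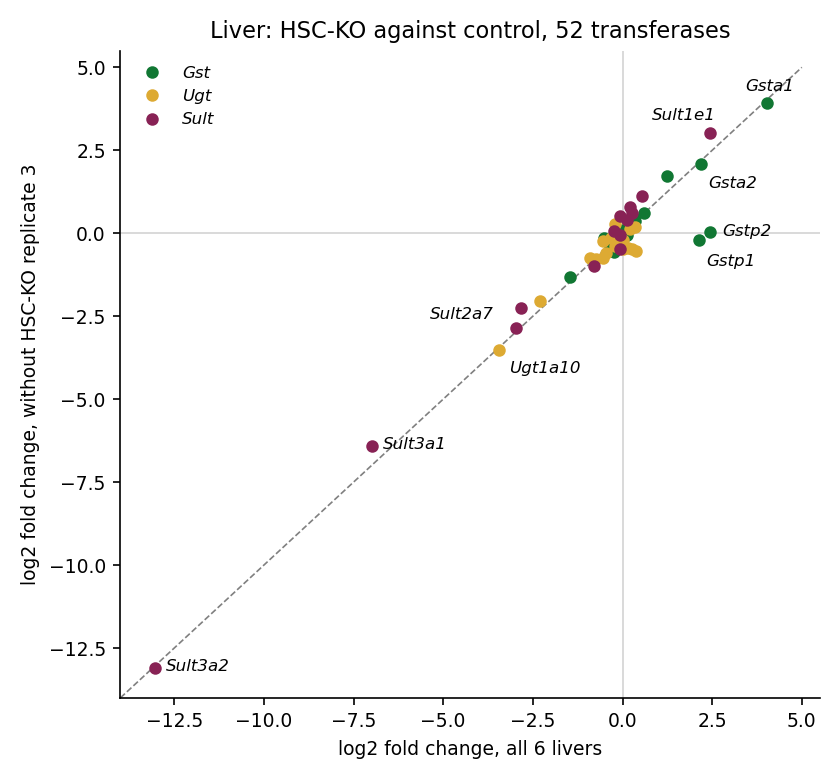
Log2 fold change of HSC-KO against control livers for the 52 members tested, over all 6 livers (horizontal) and without HSC-KO replicate 3 (vertical), coloured by family, with the dashed line at equality. Sult3a1, Sult2a7 and Gsta2 lie near the line, and Gstp1 moves from 2.15 to -0.19.

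The genes that supply and regulate the conjugation reactions were read in the same fits. Of 13 regulators, Nr1i3 alone was called, and fell from 301, 410 and 332 CPM to 110, 93.2 and 88.5 CPM (log2 fold change -1.84, SE 0.17, edgeR adjusted p = 0.00208, and -1.77, adjusted p = 0.00457 without replicate 3). Ahr was at 34.4, 42.7 and 54.9 CPM in the controls and 17.9, 27.6 and 19.4 CPM in HSC-KO, and missed the threshold (log2 fold change -1.02, adjusted p = 0.063, and -0.95, adjusted p = 0.126 without replicate 3). Of 8 transporters of conjugates and their precursors, Slco1b2 was lower, an uptake carrier of hepatocytes (log2 fold change -1.05, SE 0.14, adjusted p = 0.00984, and -1.14, adjusted p = 0.0088 without replicate 3). Of 9 NRF2 targets tested, Hmox1 was called lower in all 6 livers (-1.58, SE 0.28, adjusted p = 0.0299) and not without replicate 3 (-1.39, adjusted p = 0.0501). It was at 17.0 to 23.8 CPM in control livers and at 939 to 1159 CPM in control macrophages of the ligand experiment. Macrophage markers were lower in HSC-KO livers, and the part of macrophages in the fall of Hmox1 was not tested. Of the genes that supply glutathione (11 tested), UDP-glucuronic acid (7) and PAPS (7), edgeR called 0, with 1, 2 and 0 at an unadjusted p below 0.05, and DESeq2 called 1, 0 and 0. Without replicate 3, edgeR again called 0, with 4, 2 and 2 at an unadjusted p below 0.05, and DESeq2 called 1, 0 and 0. The share of all genes called was 2.48%, and the medians of these lists were 0.09, -0.09 and 0.10 with and 0.01, -0.03 and 0.07 without replicate 3.

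Markers of other cell types and of the lobule moved with the liver comparison. All 10 pericentral hepatocyte genes on the list were called lower, against 1.45% of all genes, and 9 of them without replicate 3, against 1.37%. The study had reported Axin2, Cyp1a2, Cyp2e1, Glul, Lgr5, Oat, Rnf43 and Tbx3 as lower in these same livers, so their outcome was known beforehand. Of 8 periportal genes, 1 was called higher, against 1.03% of all genes, or 2 without replicate 3, against 1.16%. The summed hepatocyte markers were at 142400 to 170765 CPM in the controls and 182628 to 229660 in HSC-KO, with 0 of 12 called by edgeR or DESeq2 and 5 at an unadjusted p below 0.05. The summed macrophage markers were at 246 to 377 CPM and 93.5 to 199 CPM, and the summed stellate markers at 239 to 344 and 492 to 535 CPM. Their part in the member values was not tested.

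In ECs, 7 members were called, 4 higher and 3 lower, all of them glutathione transferases but Sult5a1. This was 7 of 26 tested (26.9%), against 13.7% of all 16053 genes (7.68% higher and 6.01% lower). Most of the 26 were Gst genes, and the others were 1 Ugt1a, 4 Ugt2b, 1 Sult1 and 1 Sult2 gene and 2 of the Sult4 to 7 class. The groups did not overlap in 16 of 26 (61.5%), 7 higher and 9 lower, against 40.4% of all genes (20.2% in each direction). The median log2 fold change of the members was -0.26, against 0.00 over all genes. The endothelial markers were high in all 6 libraries (summed, 12398 to 13260 CPM in the controls and 9602 to 10435 in HSC-KO, against 312 to 393 in control livers) and albumin low (28.3 to 75.6 CPM, against 79912 to 99460 in control livers). Of the 8 endothelial markers, edgeR and DESeq2 called 0, with 5 at an unadjusted p below 0.05 and a median log2 fold change of 0.16, while their sum was lower in every HSC-KO library. The summed stellate markers were at 49.7 to 111 CPM in the controls and 27.02 to 38.9 in HSC-KO, with 2 of 8 called lower. Of the macrophage markers, C1qa was at 8.67, 5.79 and 7.93 CPM in the controls and at 0.849, 0.530 and 0.489 CPM in HSC-KO (log2 fold change -3.58, SE 0.33, edgeR adjusted p = 0.000416), and Csf1r (-3.36, SE 0.59, adjusted p = 0.00675) and Lyz2 (-1.59, SE 0.31, adjusted p = 0.0099) were also called lower. The part of these in the member values was not tested. The EC libraries with Xist were control replicate 1 and HSC-KO replicates 1 and 3.

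Gsto1, an omega class enzyme that reduces dehydroascorbate, was at 54.0, 41.7 and 46.5 CPM in control ECs and at 12.5, 8.93 and 4.05 CPM in HSC-KO (log2 fold change -2.48, SE 0.38, edgeR adjusted p = 0.00397). Gstk1, the kappa class enzyme of mitochondria and peroxisomes, was at 70.7, 66.5 and 82.6 CPM and at 34.6, 25.1 and 25.4 CPM (-1.37, SE 0.17, adjusted p = 0.00168). Both fell in every mutant library, with no overlap. Gstm3 had 23, 28 and 24 counts in the controls and 0 in each HSC-KO library, which is at least 8.43-fold lower against 3 counts per library (edgeR adjusted p = 0.00903). It is a rare transcript here, at 0.281 to 0.453 CPM in the controls. Its call was lost when the replicate number was fitted as a block (edgeR adjusted p = 0.0621).

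Gstt3, a theta class enzyme, was at 3.99, 4.17 and 4.71 CPM in control ECs and at 19.4, 36.0 and 36.4 CPM in HSC-KO (log2 fold change 2.83, SE 0.27, edgeR adjusted p = 0.000443). Gstt1 was at 2.38, 2.68 and 1.72 CPM and at 4.51, 7.08 and 7.23 CPM (1.47, SE 0.29, adjusted p = 0.0116), and Gstm7 at 1.501, 1.617 and 1.806 CPM and at 5.42, 4.80 and 4.22 CPM (1.55, SE 0.25, adjusted p = 0.00462). All 3 rose without overlap, Gstt3 most. Of the exon bases of Gstt3, 13.6% are shared with Gm20441, so reads there cannot be assigned to either. Sult5a1 had 0, 8 and 0 counts in the controls and 62, 105 and 191 in HSC-KO (5.17, SE 1.29, adjusted p = 0.0273), and its call was lost without control replicate 1, control replicate 3, HSC-KO replicate 2 or HSC-KO replicate 3 (adjusted p = 0.0664, 0.0667, 0.0729 and 0.1).

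The 2 most abundant members in control ECs by counts, Gstp1 and Gstm2, moved less. Gstp1 was at 219, 274 and 275 CPM and at 195, 159 and 126 CPM, an adjusted p below the threshold with a fold below it (log2 fold change -0.68, SE 0.19, edgeR adjusted p = 0.0424). Gstp2 was alike (-0.80, SE 0.18, adjusted p = 0.02), and Gstm1 went the other way (0.58, SE 0.13, adjusted p = 0.0172). Gstm2 was at 140, 121 and 118 CPM and at 117, 91.4 and 87.6 CPM and did not pass (-0.36, SE 0.15, adjusted p = 0.154). These 4 genes were named after their values were seen.

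**Figure D4:**
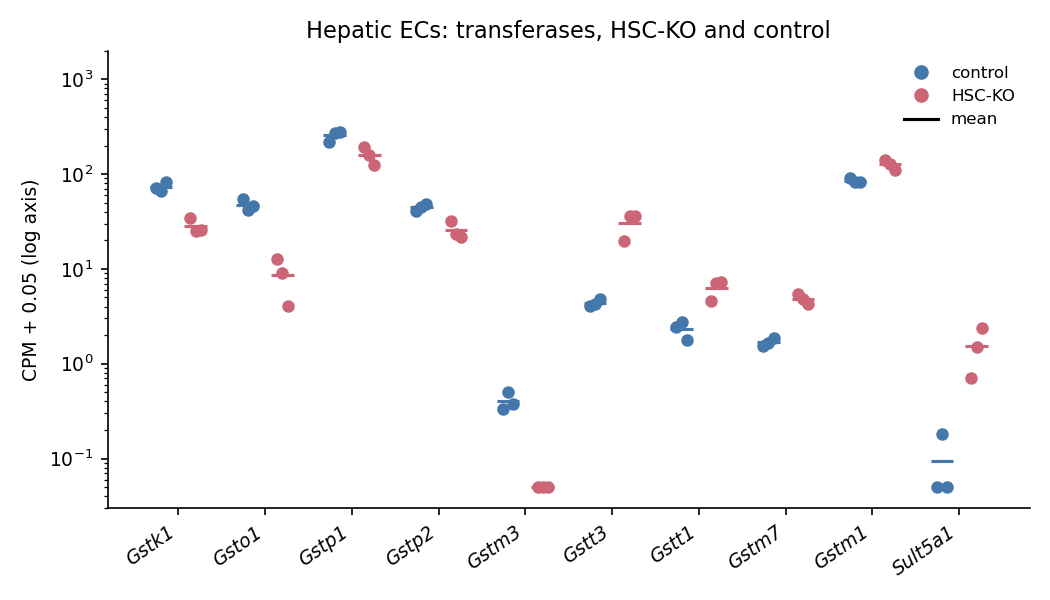
CPM plus 0.05 on a log axis for 10 members in 3 control (blue) and 3 HSC-KO (red) EC libraries, with bars at the means; zero counts sit at 0.05. Gsto1 falls from 41.7 to 54.0 CPM to 4.05 to 12.5 CPM, and Gstt3 rises from 3.99 to 4.71 CPM to 19.4 to 36.4 CPM.

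All 7 members called in ECs had another fold change there than in whole livers, by the interaction over 12 libraries, in which 7 of 55 members were called (12.7%), 4 with a positive and 3 with a negative difference, against 6.48% of all genes (3.85% and 2.63%). The difference in log2 fold change, ECs minus livers, was 3.38 for Gstt3 (SE 0.54, edgeR adjusted p = 0.00306), 1.80 for Gstt1 (SE 0.31, adjusted p = 0.00498) and 1.26 for Gstm7 (SE 0.22, adjusted p = 0.00528). It was -2.78 for Gsto1 (SE 0.45, adjusted p = 0.00333) and -1.19 for Gstk1 (SE 0.23, adjusted p = 0.00816). It was 6.03 for Sult5a1 and -7.31 for Gstm3, both fitted against libraries at or near 0. Without liver HSC-KO replicate 3 the same 7 were called, of 56 (12.5%), against 5.42% of all genes (3.15% positive and 2.27% negative), and Gstt3 differed by 3.01 (adjusted p = 0.000985). Ages and extraction kits differed between ECs and livers, so the tissue and these cannot be told apart.

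In macrophages of HSC-KO mice, 11 members were called, 9 lower and 2 higher. This was 11 of 39 tested (28.2%), against 11.7% of all 16337 genes (6.32% higher and 5.34% lower), and the median log2 fold change of the members was -1.27, against 0.04 over all genes. Only 9 members had a control mean above 10 CPM, and the hepatocyte markers had a median of -1.13 in these libraries. The part of hepatocyte RNA in the members' share and median was not tested. The groups did not overlap in 21 of 39 (53.8%), 5 higher and 16 lower, against 40.3% of all genes (20.7% and 19.6%). Gstp1 and Gstp2 were the most abundant of the 9 that fell, and the other 7 were at a far lower level.

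Gstp1 was at 264, 302 and 331 CPM in control macrophages and at 102, 129 and 138 CPM in HSC-KO (log2 fold change -1.29, SE 0.15, edgeR adjusted p = 0.00136). Gstp2 was at 69.9, 81.3 and 88.0 CPM and at 18.5, 25.7 and 26.1 CPM (-1.77, SE 0.17, adjusted p = 0.000487). Both fell without overlap, and their sum went from 334 to 419 CPM to 120 to 164 CPM (-1.37, SE 0.16, adjusted p = 0.00108 when fitted as 1 gene). Gsto1 was at 78.3, 81.4 and 79.3 CPM and at 42.0, 41.3 and 43.6 CPM (-0.91, SE 0.10, adjusted p = 0.000811), under the fold threshold. Gstm1 was at 41.9, 43.1 and 39.1 CPM and at 85.2, 54.8 and 59.8 CPM (0.69, SE 0.18, adjusted p = 0.0316), also under it. Gsto1 and Gstm1 were named after their values were seen.

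Gsta4, which conjugates lipid aldehydes, was at 4.32, 4.56 and 5.44 CPM in the controls and at 1.03, 1.51 and 0.635 CPM in HSC-KO (log2 fold change -2.17, SE 0.37, edgeR adjusted p = 0.00601). Gsta3 was at 4.66, 4.92 and 10.2 CPM and at 0.604, 0.996 and 0.164 CPM (-3.48, SE 0.65, adjusted p = 0.00954). Sult2a8 was at 1.61, 1.95 and 1.82 CPM and at 0.114, 0.388 and 0.121 CPM (-3.10, SE 0.60, adjusted p = 0.0108). Sult1d1 had 25, 23 and 75 counts in the controls and 0 in each HSC-KO library, which is at least 18.3-fold lower against 3 counts per library, or at least 8.28-fold without control replicate 3 (adjusted p = 0.0148 with all libraries). These 4 fell in every HSC-KO library, and the calls of these 4, Gstp1 and Gstp2 held with each library left out in turn.

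Ugt2b5 was at 4.61, 12.2 and 10.5 CPM in the controls and at 3.93, 1.43 and 2.56 CPM in HSC-KO (log2 fold change -1.78, SE 0.47, edgeR adjusted p = 0.0345). Ugt2b1 was at 0.898, 1.81 and 1.24 CPM and at 0.353, 0.189 and 0.405 CPM (-2.06, SE 0.53, adjusted p = 0.0313). The call of Ugt2b5 was lost without control replicate 2 or 3 or HSC-KO replicate 2 or 3 (adjusted p = 0.0863 to 0.11), and that of Ugt2b1 without any library but control replicate 1 (adjusted p = 0.0601 to 0.122). Hepatocyte RNA is present in these libraries. Albumin, at 79912 to 99460 CPM in control livers, was at 150 to 548 CPM in control and 221 to 376 CPM in HSC-KO macrophages, or 0.171 to 0.625% and 0.252 to 0.429% of the control liver level. At the albumin share of each group, control liver RNA alone would give 3.62 and 2.88 CPM of Gsta3, 2.08 and 1.65 of Ugt2b5, 2.09 and 1.66 of Sult2a8, 1.09 and 0.867 of Ugt2b1, 0.527 and 0.42 of Sult1d1 and 0.121 and 0.0967 of Gsta4. For Gsta3, Sult2a8, Ugt2b1 and Sult1d1 the HSC-KO value lies above every HSC-KO library. The albumin share is thus no measure of hepatocyte RNA of these genes in HSC-KO. Of 12 hepatocyte markers 3 were called lower (Ass1, Cps1 and Pck1), with a median log2 fold change of -1.13, and of 8 endothelial markers also 3 (Cdh5, Pecam1 and Erg). The summed endothelial markers went from 334 to 484 CPM to 11.9 to 54.4 CPM. Most of this sum was Cdh5 (282.6, 256 and 197 CPM in the controls and 0.889, 0.765 and 2.68 in HSC-KO), which Kupffer cells, the resident macrophages of the liver, also express. The other 7 summed to 51.9, 228 and 162 CPM in the controls and to 12.9, 11.2 and 51.7 CPM in HSC-KO. The part of any of these in the falls was not tested. Transferrin, also on the hepatocyte list, was at 3135 to 3580 and 4305 to 5646 CPM, which is out of proportion to albumin in these cells.

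The sex of the mice differs in these libraries too. Xist was found in control replicate 3 and in HSC-KO replicates 2 and 3, and Y-linked genes in the other 3. Sult2a1 had 63, 36 and 13 counts and Sult2a2 164, 74 and 23 counts in the 3 libraries with Xist, in that order, and 0 in those without. With Xist as a covariate, 11 members were again called, and Sult2a1, Sult2a2 and Ugt1a6a were among them in place of Ugt1a6b, Ugt2b1 and Ugt2b5.

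Counts of the Ugt1a genes have to be read together. The 9 Ugt1a genes have their own first exons and share the others, so that 54.6% of the exon bases of Ugt1a7c and 60.6% of those of Ugt1a6b also belong to other Ugt1a genes. In control macrophages Ugt1a7c was at 11.3, 1.90 and 18.0 CPM and Ugt1a6b at 4.04, 12.4 and 0.262 CPM, so the library with the least of the first had the most of the second. In HSC-KO, Ugt1a7c was at 78.2, 79.4 and 67.4 CPM (log2 fold change 2.85, SE 0.67, edgeR adjusted p = 0.0223) and Ugt1a6b at 0, 0.0419 and 0.164 CPM (-6.30, SE 1.54, adjusted p = 0.0262). Summed over the 9 genes, the locus was at 16.0, 14.5 and 19.8 CPM in the controls and at 79.3, 79.97 and 69.7 CPM in HSC-KO. Fitted as 1 gene, a choice made after seeing the data, it rose with a log2 fold change of 2.19 (SE 0.15, adjusted p = 0.000138). The call of Ugt1a7c was lost without control replicate 1 or HSC-KO replicate 1 or 2 (adjusted p = 0.0572, 0.0629 and 0.0603), and that of Ugt1a6b without control replicate 2 or HSC-KO replicate 1 or 2 (0.0874, 0.0793 and 0.0935). Ugt1a6b thus fell while the sum of its locus rose in every mutant library, and how reads of shared exons were assigned among the symbols was not tested.

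In Smad4 cKO macrophages, 3 members were called: Ugt1a7c and Gstt3 rose and Sult1a1 fell. This was 3 of 38 tested (7.89%), against 5.43% of all 17517 genes (2.76% higher and 2.67% lower). The median log2 fold change of the members was -0.23, against 0.04 over all genes, and the groups did not overlap in 14 of 38 (36.8%), 6 higher and 8 lower, against 29.4% of all genes (15% and 14.5%). All 6 libraries held Y-linked counts and almost no Xist. Of the macrophage markers, Adgre1 (log2 fold change -1.31, SE 0.14, edgeR adjusted p = 0.00178) and Lyz2 (-1.16, SE 0.18, adjusted p = 0.00883) were called lower. The summed endothelial markers were at 608 to 1760 CPM in the controls and 1204 to 1525 CPM in Smad4 cKO, with 1 of 8 called lower (Cdh5), and albumin was at 117 to 217 and 49.6 to 150 CPM. Of 12 hepatocyte markers, transferrin (Trf) alone was called, and was higher, at 1015 to 1317 CPM in the controls and 2782 to 4806 in Smad4 cKO (1.67, SE 0.21, adjusted p = 0.00398). The part of these in the member values was not tested.

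Ugt1a7c was at 4.10, 5.97 and 8.25 CPM in the controls and at 20.1, 29.6 and 19.2 CPM in Smad4 cKO (log2 fold change 1.91, SE 0.29, edgeR adjusted p = 0.00859). The summed Ugt1a locus was at 6.49, 6.38 and 8.73 CPM and at 20.5, 34.96 and 20.2 CPM (1.81, SE 0.26, adjusted p = 0.00638 as 1 gene). Gstt3 was at 2.43, 3.90 and 3.26 CPM and at 9.07, 10.2 and 5.98 CPM (1.40, SE 0.27, adjusted p = 0.0221). In HSC-KO macrophages Gstt3 was at 1.97, 3.82 and 5.70 CPM in the controls and at 9.91, 12.7 and 11.3 CPM (1.57, SE 0.36, adjusted p = 0.0221). The mutants did not overlap the controls in either experiment. The call was lost without control replicate 1 or 3 or Smad4 cKO replicate 1 or 2 in the first (adjusted p = 0.0556 to 0.102), and without control replicate 2 or any HSC-KO library in the second (0.0538 to 0.0743).

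Sult1a1 was at 143, 265 and 213 CPM in the controls and at 105, 75.8 and 84.7 CPM in Smad4 cKO (log2 fold change -1.23, SE 0.24, edgeR adjusted p = 0.0212). Its call was lost when control replicate 2 or 3 or any of the 3 Smad4 cKO libraries was left out (adjusted p = 0.0516 to 0.084). In HSC-KO macrophages it was at 116, 125 and 111 and at 131, 87.6 and 70.2 CPM and did not pass (-0.29, SE 0.22, adjusted p = 0.408). Gstm1 was at 52.9, 54.2 and 55.0 CPM and at 93.6, 84.3 and 92.2 CPM (0.74, SE 0.11, adjusted p = 0.00619), under the fold threshold. Gstp1 was at 562, 563 and 497 CPM and at 405, 480 and 483 CPM, and Gstp2 at 150, 105 and 111 and at 64.0, 81.6 and 88.0 CPM, and neither was called (-0.25 and -0.65, adjusted p = 0.31 and 0.082).

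**Figure D5:**
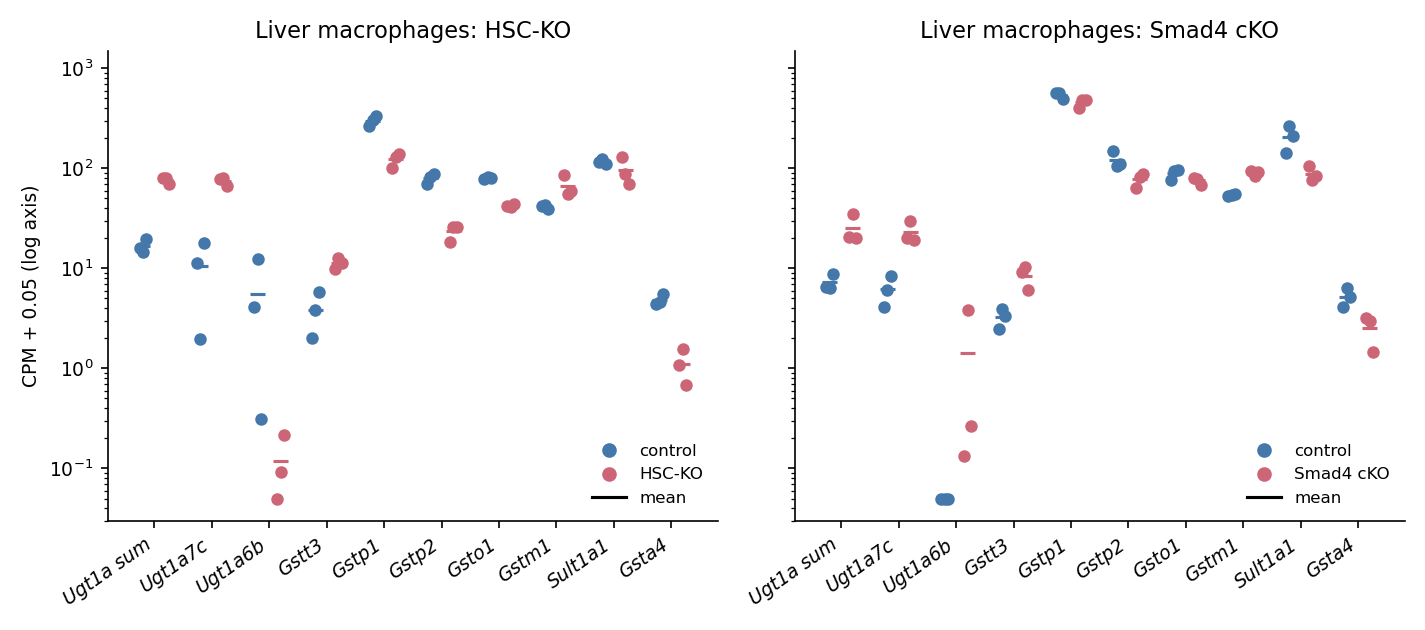
CPM plus 0.05 on a log axis for the summed Ugt1a locus and 9 members in macrophages of the HSC-KO (left) and Smad4 cKO (right) experiments, with 3 controls in blue and 3 mutants in red and bars at the means; zero counts sit at 0.05. The Ugt1a sum goes from 14.5 to 19.8 CPM to 69.7 to 79.97 CPM in HSC-KO and from 6.38 to 8.73 CPM to 20.2 to 34.96 CPM in Smad4 cKO.

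The fold changes of the macrophage experiments were compared by an interaction over 12 libraries, with separate controls. Of 42 members, 2 were called (4.76%), both with a negative difference, against 2.68% of all genes (1.46% positive and 1.22% negative). Gstp2 was lower in HSC-KO by a difference of -1.07 on the log2 scale (SE 0.26, edgeR adjusted p = 0.0495), and the summed Gstp genes by -1.02 (SE 0.21, adjusted p = 0.023). Of the 12 libraries, only the omission of Smad4 control replicate 1 kept the call of Gstp2, while the omission of Smad4 control replicate 3 or Smad4 cKO replicate 2 left 0 members called by edgeR (11 and 10 at an unadjusted p below 0.05). Gstp1 differed by -0.99 (SE 0.20, adjusted p = 0.0226), under the fold threshold. The second was Ugt1a6b, which had 0 counts in the 3 Smad4 controls and 8, 441 and 18 in Smad4 cKO, so its fitted size (-16.21) is no bound. The summed Ugt1a locus differed by 0.43 (SE 0.30, adjusted p = 0.542) and Gstt3 by 0.22 (SE 0.48, adjusted p = 0.887), which does not show that they responded alike.

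Gstt3 was thus called higher in ECs and in both macrophage experiments, and was not called in whole livers with replicate 3 (82.9, 115 and 83.7 CPM in the controls and 76.8, 93.8 and 27.5 in HSC-KO) or without it (log2 fold change -0.14, SE 0.19, edgeR adjusted p = 0.841). The EC and macrophage libraries of HSC-KO mice come in part from the same mice. Of the supply genes, Papss2, which makes PAPS, fell in both macrophage experiments (log2 fold change -2.61, SE 0.25, adjusted p = 0.000492 in HSC-KO, and -1.83, SE 0.33, adjusted p = 0.0159 in Smad4 cKO). Pgm2, of UDP-glucuronate supply, was called lower in HSC-KO macrophages (-1.21, SE 0.13, adjusted p = 0.000795). In ECs, Slc35b3 of PAPS supply (-1.32, SE 0.18, adjusted p = 0.00223) and the regulator Cux2 (-3.44, SE 0.35, adjusted p = 0.000654) were called lower. The transporter Abcg2 was called higher there (2.24, SE 0.15, adjusted p = 0.000124). The microsomal glutathione transferase Mgst1 rose in ECs (1.32, SE 0.21, adjusted p = 0.0049) and in Smad4 cKO macrophages (1.27, SE 0.19, adjusted p = 0.00791), the 1 of 12 genes of glutathione supply called in each, against 13.7% and 5.43% of all genes. In HSC-KO macrophages Mgst1 did not pass (0.14, SE 0.20, adjusted p = 0.671), and 3 of 12 of that list were called lower and 0 higher, with a median of -0.73. These were Gsr, which regenerates glutathione (-1.56, SE 0.25, adjusted p = 0.00493), Oplah (-1.04, SE 0.18, adjusted p = 0.00685) and Cbs (-4.52, SE 0.80, adjusted p = 0.00751). In HSC-KO macrophages 5 of 11 regulators tested were called: Ahr was higher (1.58, SE 0.29, adjusted p = 0.00915), while Rxra, the partner of several nuclear receptors, was lower (-1.44, SE 0.18, adjusted p = 0.00169), as were Hnf4a, Nr1i3 and Ppara. The last 3 are hepatocyte genes that were at or below 2.66 CPM in every macrophage library, where hepatocyte RNA is present and the hepatocyte markers had a median of -1.13, and the part of that RNA was not tested. Of the NRF2 targets, Ephx1 was called higher (3.00, SE 0.12, adjusted p = 2.53e-05) and Abcc3 lower (-1.49, SE 0.32, adjusted p = 0.0166) in ECs, and in Smad4 cKO macrophages Ephx1 alone was called, and was lower (-1.61, SE 0.19, adjusted p = 0.0029). In HSC-KO macrophages 4 of 10 NRF2 targets were called lower, Hmox1 among them (-1.74, SE 0.22, adjusted p = 0.00157), against 5.34% of all genes called lower. Nfe2l2 itself was higher there, under the fold threshold (0.57, SE 0.17, adjusted p = 0.0488).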

How the data were processed

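Per the labels and the study's methods, reads were aligned to mm10 with HISAT2 and counted per gene with featureCounts, and the deposited count tables hold the authors' raw counts. The sources used here do not give versions, the annotation release, the strand setting or how multimapping reads were treated. Livers were extracted with TRIzol and sorted cells with a column kit.

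Each comparison was 3 libraries against 3, of separate mice by the study's methods. Genes were kept by filterByExpr (minimum count 10, minimum total 15), scaled by TMM and tested with edgeR 4.0.16 (quasi-likelihood, R 4.3.3), with adjustment over all genes. Interactions used 12 libraries. An exact permutation test of 3 against 3 cannot go below 0.1 and was not used. DESeq2 1.42.0, other filters and scalings, a replicate block, an Xist covariate, glmTreat and the omission of each library were tried. Gene positions and lengths are from GENCODE (GRCm38), and all 63 symbols matched. Promoter windows from RefSeq matched 55. The scripts were tested on simulated data.

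The members and lists were chosen with earlier results of these data known. Named in the text are the members called, with the leading member per length of each class in control livers (in the HSC-KO macrophages the 10 with the largest change, plus Gstp1, chosen after its values were seen). Other members named, among them Sult3a2, Sult1e1, Gsta1, Gstm2, Gstp2 in livers, Ugt2b1 and Sult2a1, were also chosen after their values were seen. A member of the macrophage marker list is not reported here.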

Additional observations from a re-analysis of the deposited data

Results flagged for a closer look

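The members below are listed because their response differed between tissues or experiments by a test of the difference itself, the interaction in edgeR's quasi-likelihood test. Between ECs and whole livers of HSC-KO mice, the difference in log2 fold change (ECs minus livers) was 3.38 for Gstt3, 1.80 for Gstt1, 1.26 for Gstm7 and 6.03 for Sult5a1. It was -2.78 for Gsto1, -1.19 for Gstk1 and -7.31 for Gstm3. All 7 were also called with each of the 12 libraries left out in turn, and all but Sult5a1 with a replicate block. Between macrophages of HSC-KO and Smad4 cKO mice it was -1.07 for Gstp2 and -16.21 for Ugt1a6b, the second a fitted value that rests on libraries at 0 counts. With each of the 12 macrophage libraries left out in turn, the call of Gstp2 was kept in 1 fit and that of Ugt1a6b in 5.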

How the results depend on the processing

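Of 639 values of named members under alternatives, 530 kept their direction and side of the threshold, 79 lost the call, 12 gained it and 18 changed sign. Members called under DESeq2 numbered 7 in livers (4 by edgeR as described), 6 in both liver fits (3), 5 in Smad4 cKO macrophages (3), 14 for ECs minus livers (7) and 8 for the macrophage interaction (2). With a replicate block they numbered 1 in livers (Sult3a2, not among the 4 called without the block, which were all lost), 6 in ECs (7 without it, with Gstm3 lost), 7 in HSC-KO macrophages (11 without it), 1 in Smad4 cKO macrophages, 11 for ECs minus livers and 0 for the macrophage interaction (11 at an unadjusted p below 0.05). The replicate numbers share no stated litter or day, and the correlation of same-numbered samples lay between -0.182 and 0.223, so the block was not taken as a pairing. Under glmTreat, which tests against the fold threshold, 0 were called in livers (7 at an unadjusted p below 0.05), 3 in ECs, 5 in HSC-KO and 0 in Smad4 cKO macrophages (3 at an unadjusted p below 0.05). With no fold threshold, 11 were called in ECs. With the Ugt1a and Gstp genes summed, a choice made after seeing the data, 7 single members were called in HSC-KO macrophages and 0 for the macrophage interaction (8 at an unadjusted p below 0.05), since the summed genes no longer count as members. With each library left out, calls ranged from 0 to 6 in livers, 6 to 8 in ECs, 6 to 11 in HSC-KO and 1 to 2 in Smad4 cKO macrophages, 7 to 11 for ECs minus livers and 0 to 2 for the macrophage interaction.

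The changes of sign were all in uncalled liver values. Gstm1 was at -0.024 with library size alone and -0.053 with the Xist covariate, Gstp1 at -0.20 with the Xist covariate, Sult2a2 at -0.80 with the replicate block, and Ugt2b5 at -0.090 with library size alone, -0.089 with the block and -0.47 with the Xist covariate. With each library left out, Gstm1 ranged from -0.051 to 0.20, Gstp1 from -0.19 to 2.64, Sult1a1 from -0.072 to 0.39, Sult2a2 from -0.57 to 1.16, Sult5a1 from -1.17 to 0.023 and Ugt2b5 from -0.46 to 0.23. The cause of these shifts was not tested. Low counts limit Sult5a1, Gstm3, Sult1d1 and Ugt1a6b, whose folds against libraries at 0 counts are bounds or fitted values.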
